A study of Mus musculus with 2 samples.

Results

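Smooth muscle contractile genes and their coactivator gene *Myocd* were followed through the development of the mouse esophagus, gastroesophageal squamocolumnar junction (GE-SCJ) and stomach. The set holds 10 genes, chosen by name and all found among the 19550 genes counted: *Acta2*, *Actg2*, *Myh11*, *Tagln*, *Cnn1*, *Des*, *Smtn*, *Lmod1*, *Mylk* and *Myocd*. The data are one pooled single-cell RNA library from wild type C57BL/6 mice at E15 and E19, from pups of day 2 and from adults of 8 weeks, in which an oligonucleotide tag marked the region and stage of each of 7808 cells. The labels give 6 mice at E15, 2 at E19, 2 pups and 3 adults, while the methods say that 3 mice were combined. Cells carry no mark of the mouse, so each of the 11 region and stage combinations is 1 pooled sample, no difference could be tested, and no adult stomach cell was assigned. The deposited label Smooth Muscle held 1027 cells, as 93, 42, 22 and 30 cells of the esophagus at E15, E19, pup and adult, 131, 190, 119 and 16 of the GE-SCJ, and 111, 160 and 113 of the stomach at the 3 stages present. The label Stromal, the fibroblast-type cells, held 3442 cells.

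Smooth muscle shortens when myosin pulls on actin filaments. *Acta2* and *Actg2* encode the smooth muscle α- and γ-actins, *Myh11* the myosin heavy chain, and *Mylk* the kinase that switches myosin on when calcium is high. *Tagln* (transgelin), *Cnn1* (calponin), *Smtn* (smoothelin) and *Lmod1* (leiomodin, which starts new filaments) encode proteins bound to actin, and *Des* encodes desmin, the intermediate filament of muscle. MYOCD (myocardin) binds serum response factor at a short DNA element, the CArG box, and drives many of these genes. In the GRCm38 annotation (GENCODE M21), *Acta2* lies at chr19:34241090-34255590, *Actg2* at chr6:83512905-83536265, *Des* at chr1:75360329-75368579 and *Myocd* at chr11:65176561-65269989. In the gut wall, smooth muscle forms the outer muscle layers and the muscularis mucosae, pericytes and arterial smooth muscle of vessels share several of the same genes, and the mouse esophagus also has a striated muscle coat.

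The CArG box was looked for in RefSeq promoters of GRCm38.p6, from 250 bases before to 50 after a gene's start, because it is the letters through which MYOCD is known to act. Of the 10 genes, 6 had an entry: *Acta2*, *Cnn1*, *Des*, *Smtn*, *Lmod1* and *Mylk*. An exact box lay in 0 of the 6 and in 1.64% of 32544 promoters. With 1 mismatch allowed among its inner letters, a box lay in 1 of the 6, *Acta2*, which had 2, and in 9.96% of all promoters. The element reads the same on both strands, so each match covers both. The *Acta2* matches begin 84 and 34 bases before the RefSeq start and are shown with 10 bases on each side, the box in capitals.
Acta2, first match, chr19:34255438-34255467, minus strand: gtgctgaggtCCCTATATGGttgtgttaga
Acta2, second match, chr19:34255388-34255417, minus strand: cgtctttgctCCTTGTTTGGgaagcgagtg
Both windows lie within an exon of *Acta2* in GENCODE M21, chr19:34255290-34255590, that is annotated as untranslated. A match is a description of letters only, and the windows without one say nothing about binding elsewhere.

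Levels are given as CPM, the unique molecular identifiers (UMIs) that a gene had in all cells of a label, region and stage per 1000000 UMIs of all genes there, with exact 95% Poisson intervals in parentheses. A log2 ratio compares 2 such sums after 1 UMI was added to each, and its interval is exact and conditional on both counts. All intervals cover counting error only, so they are narrow for abundant genes and say nothing of differences between mice. Groups of under 20 cells are given as values without a ratio. "At least 2-fold" counts the 10 genes among those with at least 100 UMIs over both groups, and the share of all such genes that passed the same limit is given beside it. UMI tags mark the 3′ end of a transcript, so levels of different genes are not compared per length. In a sum over cells, fewer transcripts per cell and fewer cells of a type within a label cannot be told apart. Values per cell are therefore given further below.

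The 6 markers fixed for smooth muscle (*Acta2*, *Myh11*, *Tagln*, *Actg2*, *Cnn1* and *Des*) are members of the set and were all present in each Smooth Muscle group, so they are no independent check of the label. The 20 other contractile genes, none of them a member, summed to 21070.2 to 46466 CPM over the Smooth Muscle groups and to 3059 to 6751 CPM over the Stromal groups of at least 20 cells. The label joins 2 clusters of the deposited clustering whose shares differed with stage. Cluster 4 held 779 cells and cluster 11 held 248. In the prenatal groups, between 1 and 6 cells belonged to cluster 11, whereas in the pup it held 95 of 119 cells of the GE-SCJ and 101 of 113 of the stomach, but 3 of 22 of the esophagus. In the adult it held 23 of 30 cells of the esophagus and 8 of 16 of the GE-SCJ. Over all stages and regions, cluster 11 had more of the genes of vessel mural cells, at 2367 CPM over 7 genes against 274 CPM in cluster 4. *Rgs5* was at 1702 against 43.7 CPM, and fibroblast transcripts were at 7948 against 3302 CPM over 6 genes. Cluster 4 was mostly prenatal and cluster 11 mostly postnatal, so cluster and stage cannot be told apart in these sums. In the pup GE-SCJ alone, given below, fibroblast markers differed between the clusters but the mural list did not separate them. Pup cells were shallower than prenatal ones in both clusters, with a median of 5707 UMIs in cluster 4 and 4315 UMIs in cluster 11 at the GE-SCJ, against 12189.5 UMIs in cluster 4 at E15. Of the pup cells in cluster 4, most had nearest neighbours that came mainly from before birth, which was the case for 15 of 19 cells of the esophagus, 18 of 24 of the GE-SCJ and 9 of 12 of the stomach. In pup cluster 11 the same held for 0 of 3, 0 of 95 and 1 of 101 cells. From E15 to adult, cluster 4 held 328, 381, 55 and 15 cells, and cluster 11 held 7, 11, 199 and 31. Cells of like expression were thus mostly prenatal in cluster 4 and mostly postnatal in cluster 11, and the neighbour counts were not set against that make-up. The part of pup cells with mainly prenatal neighbours in the pup values was not tested, and pup values are given by cluster as well.

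The 10 genes were concentrated in the Smooth Muscle label to different degrees. *Actg2* had 92.2% of its UMIs there and 5.52% in Stromal cells, and *Acta2* had 77.6% and 19.4%. *Smtn* and *Myocd* were spread more widely, with 34.5% and 42.5% of their UMIs in Stromal cells, which outnumbered the Smooth Muscle cells. As a level, *Myocd* stood at 242 CPM in Smooth Muscle, 62.3 in Stromal, 3.99 in Immune, 1.71 in columnar and 0.887 CPM in squamous epithelial cells. *Smtn* was the only one of the 10 genes with a higher level in endothelial cells, at 85.9 CPM, than in Stromal cells, at 69 CPM.

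Between E15 and E19, the contractile transcripts were higher at E19 in all regions, and their sum differed most in the stomach. The 9 contractile genes together made up 38258 CPM (37899 to 38619.7) in the esophagus at E15 and 46834 CPM (46213 to 47462) at E19. They made up 34678 CPM (34401.5 to 34957) and 43620.3 CPM (43357 to 43884) in the GE-SCJ, and 38422 CPM (38124 to 38722) and 61083.5 CPM (60735 to 61433) in the stomach. Each region thus stood higher at E19, and the stomach, level with the esophagus at E15, stood above both others.

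*Des*, the desmin gene, differed most. In the stomach its level was 300.0 CPM (274 to 328) at E15 and 1327 CPM (1276 to 1379) at E19, a log2 ratio of 2.14 (2.00 to 2.28). At the GE-SCJ it was 315 and 840.0 CPM, a log2 ratio of 1.41 (1.28 to 1.55), and in the esophagus 819.5 and 1626 CPM, a log2 ratio of 0.99 (0.85 to 1.13). No other member reached 2-fold between these stages. The counts were 1 of 10 genes in the stomach, where 1.37% of 5173 genes were at least 2-fold higher, 1 of 10 at the GE-SCJ (1.34% of genes) and 0 of 10 in the esophagus (3.05%), and 0 of 10 were 2-fold lower in any region, where 1.45%, 0.653% and 3.37% of genes were. The median log2 ratio of the 10 genes was 0.56 in the stomach, 0.24 at the GE-SCJ and 0.39 in the esophagus, beside -0.14, -0.07 and 0.04 over all genes counted.

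*Actg2* came next in the stomach. It went from 7482 to 14341 CPM, a log2 ratio of 0.94 (0.91 to 0.97), and *Acta2*, the other actin gene, was at 11378 and 16939 CPM, a log2 ratio of 0.57 (0.55 to 0.60). *Tagln* was at 7905 and 13652 CPM and *Smtn* at 204 and 345 CPM, with log2 ratios of 0.79 and 0.76. *Myh11*, at 4069 and 4637 CPM, differed least of the contractile genes there, with a log2 ratio of 0.19 (0.14 to 0.23). *Mylk*, *Lmod1*, *Cnn1* and *Myh11* had larger log2 ratios in the esophagus than in the stomach. After *Des*, the widest log2 ratio in the esophagus was that of *Mylk*, 0.61 (0.55 to 0.67), from 4631 to 7067 CPM, and *Acta2* was almost level, at 12050.4 and 12686.5 CPM. *Smtn* could not be told apart between the stages in the esophagus (0.18, interval -0.07 to 0.43) or the GE-SCJ (0.16, interval -0.01 to 0.33), as both intervals hold 0.

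*Myocd* went the other way from the genes it is known to drive. Its level in the stomach was 334 CPM (307 to 363) at E15 and 219.6 CPM (199 to 242) at E19, a log2 ratio of -0.60 (-0.79 to -0.42). In the esophagus it was 219.7 CPM (193 to 249) and 158 CPM (124 to 198), a log2 ratio of -0.46 (-0.86 to -0.08), and at the GE-SCJ 256 CPM (232 to 281) and 217 CPM (199 to 237), a log2 ratio of -0.24 (-0.42 to -0.05). All 3 intervals lie below 0, and it was the only one of the 10 genes that was lower at E19 in any region. At the GE-SCJ the interval also holds the median log2 ratio over all genes counted, -0.07. In cluster 4 alone the log2 ratios of *Myocd* were -0.61, -0.49 and -0.24, in the same order of regions.

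**Figure D1:**
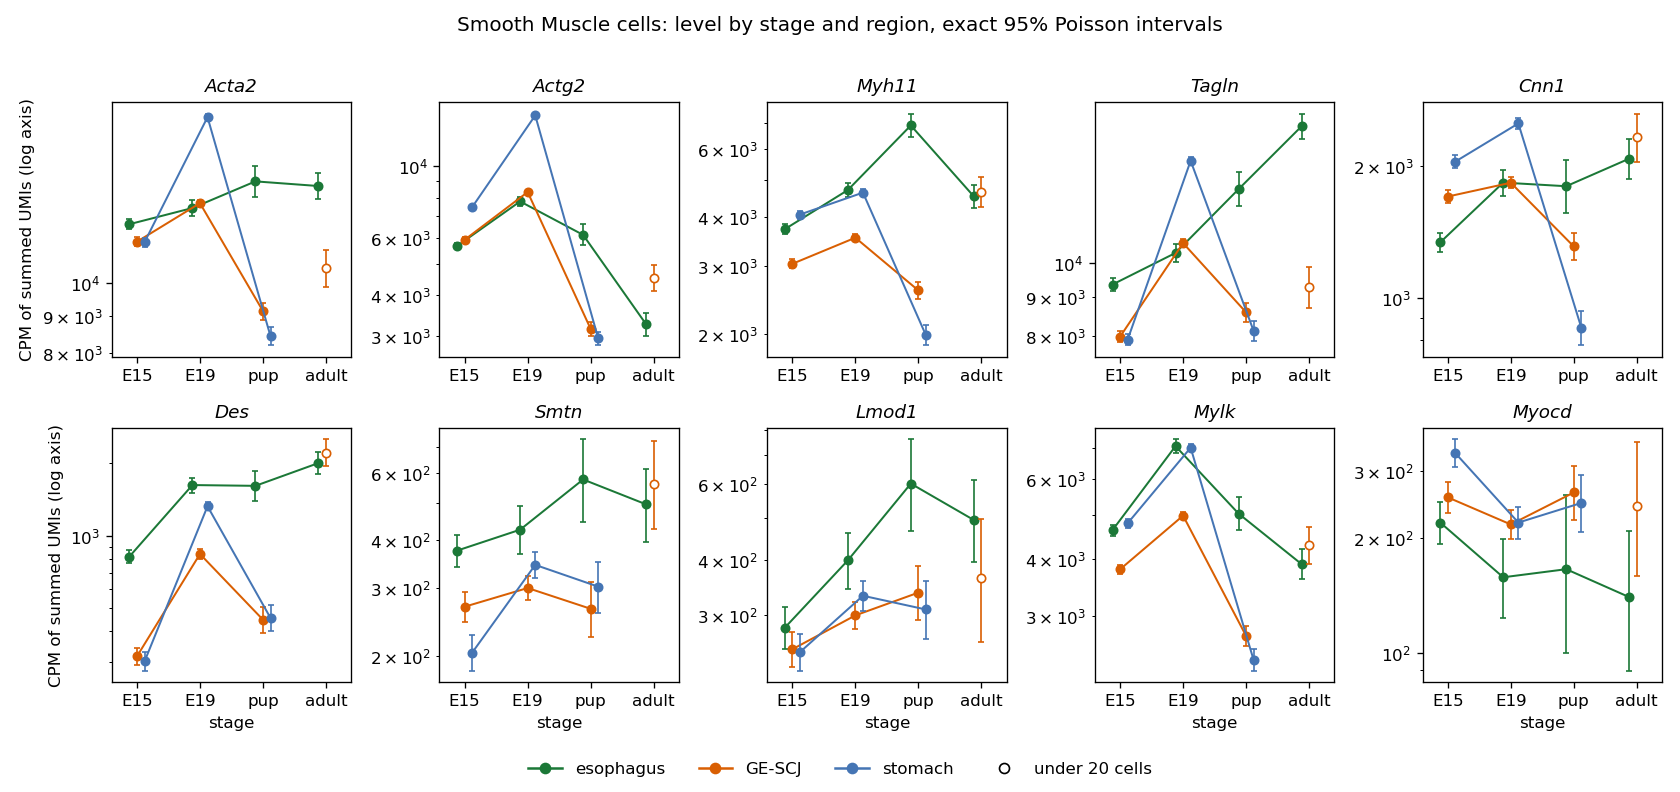
Level of each of the 10 genes in Smooth Muscle cells (CPM of summed UMIs, log axis) at E15, E19, pup and adult, with a line for each region, exact 95% Poisson intervals as bars, and open points for the 16 cells of the adult GE-SCJ. In the stomach, 9 genes peak at E19 and *Myocd* at E15, whereas *Myh11*, *Tagln* and *Lmod1* of the esophagus stand highest in the pup or adult.

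The genes were ordered by how much of their highest level over the stages was already present at E15. The 16 adult cells of the GE-SCJ were left out, so the highest level there is that of E15, E19 and pup. *Des* had the smallest share in all 3 regions, 22.6% (20.5 to 24.9) in the stomach, 37.5% (34.1 to 41.3) at the GE-SCJ and 40.8% (36 to 46.3) in the esophagus. In the stomach, *Actg2* followed at 52.2% (51.1 to 53.3), then *Tagln* at 57.9% (56.7 to 59.1) and *Smtn* at 59.1% (51.7 to 67.5), whose interval covers both neighbours. *Acta2* and *Mylk* (67.2% and 68.3%) had overlapping intervals, as did *Lmod1* (74.1%) with *Mylk* and *Cnn1* (81.9%), and *Myh11* was at 87.8% (85 to 90.6). *Myocd* was highest at E15 in the stomach and the esophagus, and at 97.1% (80.5 to 118) of its highest level at the GE-SCJ. At least 50% of the highest level was present at E15 for 9 of 10 genes in the stomach and at the GE-SCJ and for 8 of 10 in the esophagus, where *Des* and *Lmod1* (46.5%, interval 35.7 to 61.2) lay below. Over the whole label, the middle of the order was not shared between regions: *Myh11* was the third from the lowest in the esophagus (53.9%) and near the top in the stomach. *Actg2*, next to *Des* in the stomach, was near the top in the esophagus (72.9%, interval 70.0 to 76). The highest *Myh11* level of the esophagus was that of 22 pup cells, 19 of them in cluster 4. In cluster 4 alone, over E15 and E19 only, *Myh11* was at 80.9% (76.7 to 85.2) in the esophagus and 87.3% (84.6 to 90.2) in the stomach. *Actg2* was there at 73.1% and 51.4%. At the GE-SCJ, *Actg2*, *Lmod1*, *Tagln* and *Mylk* lay between 71.3% and 76.3%, and *Cnn1*, at 93%, came next to *Myocd*. The adult GE-SCJ levels of *Des*, *Smtn*, *Cnn1* and, by less, *Lmod1*, given below, lie above those 3 stages. The order and the count of genes at 50% there thus hold without the adult only. Over the whole label, 3 of 10 genes were lowest at E15 at the GE-SCJ, and in cluster 4 alone 9 of 10 were. The order there differed in cluster 4 too, where *Des* (22.7%), *Cnn1* (47.2%, interval 43 to 51.9), *Smtn* (47.4%) and *Tagln* (48.3%) were lowest. In that cluster 6 of 10 genes were at 50% or more at E15. For 8 of 10 the highest level was that of its 24 pup cells.

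**Figure D2:**
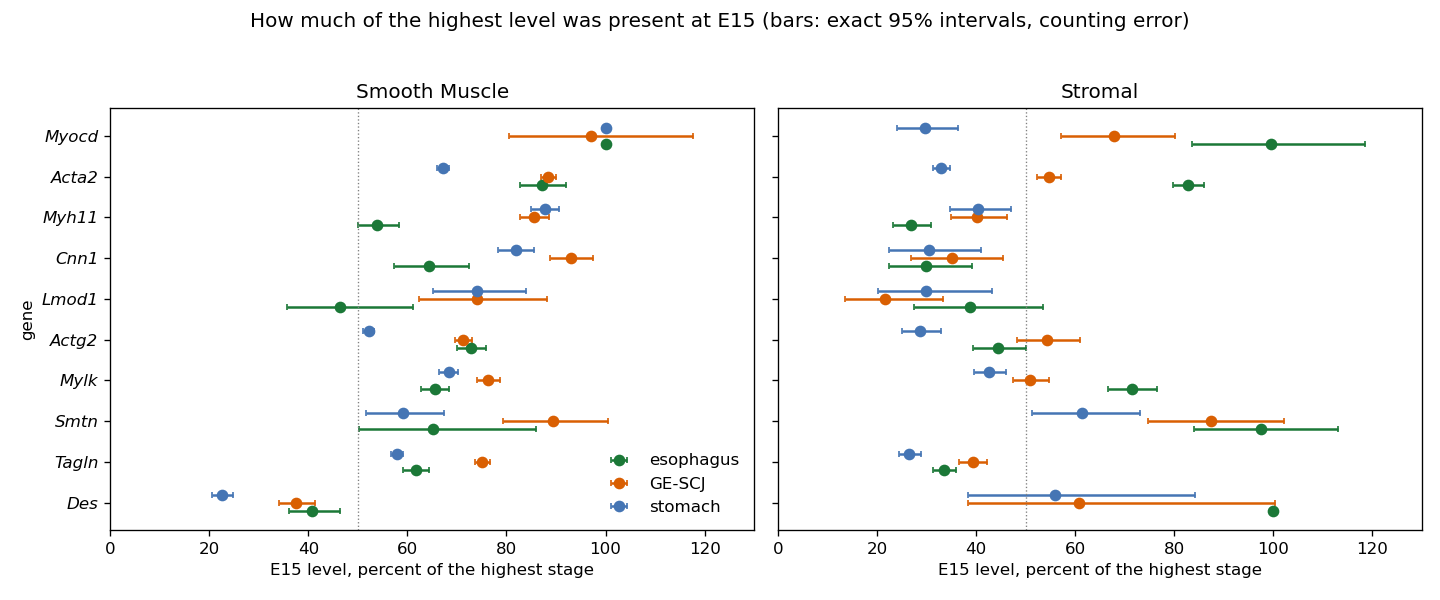
E15 level as a percent of the highest level over the stages, for each gene and region, in Smooth Muscle (left) and Stromal cells (right), with exact 95% intervals and a dotted line at 50 percent, and without the adult GE-SCJ. In Smooth Muscle cells, *Des* lies between 22.6% and 40.8% and *Myocd* between 97.1% and 100%. In Stromal cells of the stomach, all but *Smtn* and *Des* lie below 50%.

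After birth, the label as a whole differed between regions. In the pup stomach the 9 contractile genes together were at 25812 CPM (25392 to 26237), and at the GE-SCJ at 28552 CPM (28115 to 28994), both under their E15 level. In the pup esophagus they were at 49009 CPM (47735 to 50307) and in the adult esophagus at 45545 CPM (44539.9 to 46566.5), both above E15. The 16 adult cells of the GE-SCJ were at 38719 CPM. Within cluster 4 the pup values were 54637, 60024.5 and 55155 CPM in esophagus, GE-SCJ and stomach, from 19, 24 and 12 cells, all above the E15 values of that cluster. Within cluster 11 they were 17064, 18174 and 20619.7 CPM, from 3, 95 and 101 cells, so the regions spanned less within a cluster than over the whole label.

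In the stomach, 6 of 10 genes were at least 2-fold lower in the pup than at E19, where 11.2% of 3780 genes were, and 3 of 10 were at least 2-fold lower than at E15 (12.5% of genes). Of the 10, 0 were 2-fold higher than at E19 (12%) or E15 (10.2%). The 3 were *Actg2*, at 2945 CPM with a log2 ratio of -1.34 (-1.42 to -1.27) to E15, *Cnn1*, at 854 CPM with -1.26 (-1.40 to -1.12), and *Myh11*, at 1983 CPM with -1.04 (-1.13 to -0.94). *Mylk*, at 2408 CPM, lay just short of the limit (-0.99). *Des*, *Smtn* and *Lmod1* were higher than at E15 over the same label, by log2 ratios of 0.60, 0.57 and 0.33, with intervals above 0. Over the whole label the genes thus did not move together, and *Tagln*, at 8119 CPM, stood at its E15 level (0.04, interval -0.01 to 0.09). By cluster, *Des* was at 221 CPM in the 101 pup cells of cluster 11, below its 300.0 CPM at E15. It was at 1775 CPM in the 12 pup cells of cluster 4, of which 9 had mainly prenatal neighbours.

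At the GE-SCJ, 0 of 10 genes were at least 2-fold higher in the pup than at E15 (10.7% of 3671 genes) and 0 of 10 at least 2-fold lower (11.7%). *Actg2* came closest, at 3149 CPM against 5931 at E15, a log2 ratio of -0.91 (-0.99 to -0.84). Against E19, 1 of 10 was at least 2-fold lower, again *Actg2* (-1.40, and 0.16 in cluster 4 alone), where 9.2% of genes were, and 0 of 10 higher (9.43%). *Des* was at 315, 840.0 and 448 CPM over the 3 stages and at 2219 CPM (1945 to 2519.8) in the 16 adult cells. *Smtn* was at 268, 300.3 and 265 CPM, then 562 CPM (429 to 723), and *Cnn1* at 1702, 1830.2 and 1309.6 CPM, then 2322 CPM (2042 to 2629). The adult cells were thus the highest of the 4 stages for these 3 genes over the whole label. Cluster 4 held 8 of the 16 adult cells and 24 of the 119 pup cells. Its pup cells had *Des* at 1395 CPM, below the 16 adult cells, and *Cnn1* at 3659.9 CPM, above them. The 9 contractile genes together were at 60024.5 CPM in its pup cells and 47722.5 CPM in its adult cells. *Lmod1* was at 249, 299, 337 and 365 CPM, and *Myocd* stayed between 217 and 263 CPM from E15 to adult.

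In the esophagus, 1 of 10 was at least 2-fold higher in the pup than at E15, *Lmod1* (1.12), where 6.84% of 1870 genes were, and 1 of 10 was in the adult, *Des* (1.29, interval 1.11 to 1.47), where 9.93% were. These shares of 10 genes are near the background. For 2-fold lower the counts were 0 of 10 (11.7%) and 0 of 10 (14.7%), and from E19 to the pup 0 of 9 counted genes were 2-fold higher (4.36%) and 0 of 9 lower (7.43%). *Myh11* was at 3729.8, 4707, 6918 and 4533 CPM over the 4 stages, so the pup stood above the rest. *Tagln* was at 9356, 10304, 12518 and 15169.9 CPM and *Cnn1* at 1338, 1832, 1797 and 2077 CPM, both highest in the adult. *Actg2* was lower in the adult over the whole label, at 3256 CPM, a log2 ratio of -0.80 (-0.93 to -0.67) to E15, and *Mylk* was slightly lower (-0.24, interval -0.36 to -0.13). Of the 30 adult cells, 23 were in cluster 11, against 2 of 93 at E15. In cluster 4 alone *Actg2* was not lower, at 5779 CPM at E15 and 6939.9 CPM in its 7 adult cells. The 9 contractile genes together were there at 38703 and 70204 CPM. The pup had *Myocd* at 166 CPM (99.8 to 259), the adult at 140.0 CPM (89.7 to 208), and neither interval excludes the E19 level.

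Split by cluster, pup cells of the GE-SCJ fell on both sides of the prenatal levels. In the 24 pup cells of cluster 4, the 9 contractile genes together were at 60024.5 CPM (58754 to 61316), against 34970 at E15 and 43938 at E19 in the same cluster. In the 95 pup cells of cluster 11 they were at 18174 CPM (17772 to 18582). Within cluster 4, 4 of 10 genes were at least 2-fold higher in the pup than at E15, where 6.61% of 2903 genes were, and the median log2 ratio was 0.83 over the 10 genes and -0.17 over all genes. The 4 were *Des* (2.14, interval 1.90 to 2.38), *Cnn1* (1.09, interval 0.95 to 1.22), *Smtn* (1.09, interval 0.74 to 1.43) and *Tagln* (1.05, interval 0.99 to 1.11). *Acta2* was at 17563.5 CPM and *Myh11* at 5423 CPM, log2 ratios of 0.61 and 0.83. *Myocd*, at 177 CPM (115 to 261), was not distinguishable from E15 at this depth (-0.49, interval -1.12 to 0.09). As given above, 18 of these 24 cells had mainly prenatal neighbours.

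Between the clusters in the pup GE-SCJ, 8 of 10 genes were at least 2-fold lower in cluster 11 (8.56% of 864 genes). *Des* was at 135 against 1395 CPM (-3.35, interval -3.79 to -2.92) and *Actg2* at 1090.2 against 9394 CPM (-3.11, interval -3.26 to -2.95). *Cnn1* was at 535 against 3659.9 CPM (-2.77). *Lmod1* differed little (-0.54, interval -0.99 to -0.09) and *Myocd* was the one gene higher in cluster 11, at 292 against 177 CPM (0.68, interval 0.06 to 1.35). The clusters were made by the authors from the expression of these same cells, so the split is a description and not a test. Mural markers were at 1144 CPM in cluster 11 and 1055 CPM in cluster 4 of the pup GE-SCJ, with *Notch3* and *Higd1b* at 0 in both, so the mural list did not separate the clusters there. Fibroblast markers did differ, at 8684 and 4453 CPM, and their part in the lower levels was not tested.

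The same order held in the pup stomach and the adult esophagus, where no ratio was made because cluster 4 held 12 and 7 cells. In the pup stomach, *Actg2* was at 10056 CPM in cluster 4 and 1687 in cluster 11, and *Des* at 1775 and 221 CPM. In the adult esophagus, *Actg2* was at 6939.9 and 1644 CPM and *Des* at 3489 and 1359 CPM. The adult esophagus was thus higher in *Des* than the pup stomach within cluster 11 as well. Mural markers were at 6030.4 CPM in adult cluster 11 of the esophagus, all 7 genes detected, and at 2644 CPM in that of the pup stomach, and their part was not tested.

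**Figure D3:**
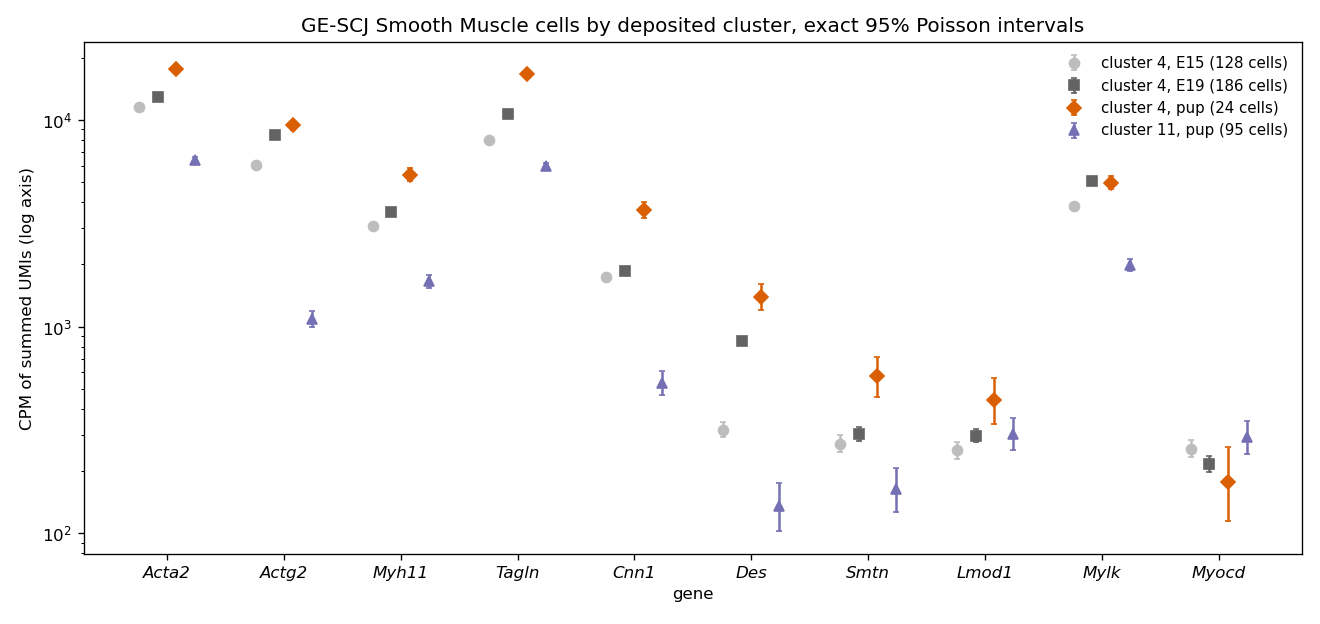
Levels of the 10 genes (CPM of summed UMIs, log axis, exact 95% Poisson intervals) in GE-SCJ Smooth Muscle cells of cluster 4 at E15, E19 and pup and of cluster 11 in the pup. The pup cells of cluster 4 are the highest of the 4 groups for all genes but *Mylk* and *Myocd*, and those of cluster 11 the lowest for all but *Lmod1* and *Myocd*. *Myocd* has its lowest point in pup cluster 4 and its highest in pup cluster 11.

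Across regions at one stage, most of the 10 genes were near each other before birth. At E15, 1 of 10 genes was at least 2-fold lower in the stomach than in the esophagus, *Des* (-1.45, interval -1.61 to -1.29), where 2.73% of 4279 genes were, and 0 of 10 were 2-fold higher (4%). *Des* at the GE-SCJ, 315 CPM, was at the stomach level and also 2-fold below the esophagus (-1.38), the one gene of 10 to be so where 1.91% of all genes were. *Smtn* was lower in the stomach too (-0.88, interval -1.09 to -0.67), and *Cnn1* and *Myocd* were higher, by 0.61 and 0.60. At E19, 0 of 10 genes were 2-fold higher in the stomach (4.65% of 3529 genes) and 0 of 10 2-fold lower (3.12%). Between stomach and esophagus *Actg2* was the most different, at 14341 against 7787 CPM, a log2 ratio of 0.88 (0.83 to 0.93). At the GE-SCJ it was at 8322 CPM, while *Des* there was lower than in the esophagus (-0.95, interval -1.08 to -0.83). *Des* was still lower in the stomach (-0.29).

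In the pup, 5 of 10 genes were at least 2-fold lower in the stomach than in the esophagus, where 6.04% of 1059 genes were, and 0 of 10 were higher (13.3%). The 5 were *Des* (-1.83, interval -2.11 to -1.55), *Myh11* (-1.80, interval -1.94 to -1.67), *Cnn1*, *Mylk* and *Actg2* (-1.08, -1.07 and -1.06). The esophageal side of this comparison is 22 cells, of which 19 were in cluster 4 and 15 had mainly prenatal neighbours, against 12 of 113 cells in cluster 4 in the stomach. Within a cluster, *Des* was at 1672 CPM in the esophagus and 1775 in the stomach in cluster 4, and *Myh11* at 7541 and 4301 CPM. In cluster 11 the 3 esophageal cells had *Des* at 1281 and *Myh11* at 3378 CPM, against 221 and 1573 CPM in the stomach.

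Striated muscle transcripts were looked at beside *Des*, which both muscle types use. In Smooth Muscle cells of the esophagus the 12 genes of a skeletal muscle list summed to 124, 655, 698 and 29.2 CPM from E15 to adult, with 4 or 5 of the 12 genes detected. *Tnnt3*, a fast skeletal troponin, was at 8.82, 329, 480 and 0 CPM over these stages. *Ckm* was at 60.9, 305, 201 and 5.83 CPM, and *Acta1* at 34.4, 15.1, 8.72 and 5.83 CPM. *Myod1*, *Myog*, *Myh3* and *Pax7* of the same list were at 0 in all 4. In the stomach the list summed to 41.1, 352 and 32.2 CPM, with *Ckm* (muscle creatine kinase) at 279 of the E19 sum. Among the 4 stages of the esophagus, *Des* was highest in the adult, and the list was lowest there, at 29.2 CPM. The part of striated muscle in the *Des* levels was not tested. Without the 1 pup cell with over 0.5% skeletal UMIs, the log2 ratio of *Des* from E15 to the pup esophagus was 1.02 in place of 0.98, which took it past 2-fold.

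The balance of the smooth muscle actins shifted with region and stage. Both genes share no run of 50 letters between their longest transcripts, so their tags can be told apart. *Actg2* made up 32% (31.4 to 32.7) of the *Actg2* and *Acta2* UMIs in the esophagus at E15, 34.2% (33.7 to 34.8) at the GE-SCJ and 39.7% (39.1 to 40.2) in the stomach (exact 95% Clopper-Pearson intervals). At E19 the shares were 38% (37.1 to 39), 39.2% (38.8 to 39.7) and 45.8% (45.4 to 46.2), higher in each region and in the same order. In the pup they were 30.8%, 25.6% and 25.9%, and in the adult esophagus 19.3%. By cluster, pup cells of the GE-SCJ stood at 34.8% (33.3 to 36.4) in cluster 4, at their E15 share, and at 14.6% (13.4 to 15.9) in cluster 11. In the pup stomach the shares were 38.3% and 19.3%, and in the pup esophagus 30.6% (28.7 to 32.6) from 19 cells and 35.7% (24.6 to 48.1) from 3. In the adult esophagus they were 28.8% (26.3 to 31.4) from the 7 cells of cluster 4, against 32.3% in that cluster at E15. The 23 adult cells of cluster 11 stood at 12% (10.5 to 13.7). Cluster 11 was thus the lower in the pup GE-SCJ and stomach and in the adult esophagus. In cluster 4 too the pup lay below E19 in each region.

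Stromal cells carried the same transcripts at a lower level, with a peak at E19. The 9 contractile genes together were at 1836 CPM (1793 to 1879.7) in the esophagus, 1537 CPM (1498 to 1577) at the GE-SCJ and 1089 CPM (1056 to 1123) in the stomach at E15. At E19 they were at 2956, 3053 and 3146 CPM, and in the pup at 780.4, 1077 and 1489 CPM. Immune cells, which should lack these genes, held 463, 568 and 151 CPM at E15 and 829, 297 and 278 CPM at E19. In the E19 esophagus, 1 of the 38 Immune cells held at least 1% contractile UMIs, while the middle cell held 0.0211%. In the pup they held 300.1 and 299 CPM in the esophagus and the GE-SCJ. The Stromal sums lay above the Immune sums in each of these 8 groups. In the pup this did not hold for every gene. In the pup esophagus, *Acta2* was at 253 CPM (215 to 296) in Stromal and 76.8 CPM (48.1 to 116) in Immune cells. *Myh11* was there at 28.7 CPM (17.0 to 45.3) and 31.4 CPM (14.4 to 59.6), so it could not be told from the Immune level.

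At least 2-fold higher at E19 than at E15 were 5 of 10 genes in the esophagus (1.85% of 9225 genes), 4 of 10 at the GE-SCJ (1.61%) and 8 of 10 in the stomach (1.91%), and 0 of 10 were 2-fold lower (1.31%, 0.341% and 0.862% of genes). *Acta2* in the stomach was at 469 CPM (448 to 492) and 1423 CPM (1394 to 1452), a log2 ratio of 1.60 (1.53 to 1.67). In the esophagus it was already high at E15, at 1006 CPM against 1215 at E19 (0.27). *Tagln* was the most different in the stomach, at 171 and 646 CPM (1.91, interval 1.80 to 2.04), and *Myh11* in the esophagus, at 56.7 and 211 CPM (1.89, interval 1.69 to 2.10). *Des*, the widest in Smooth Muscle cells, was among the narrowest here, at 41.4 and 52 CPM in the stomach (0.33, interval 0.05 to 0.61) and lower at E19 in the esophagus (-0.42, interval -0.71 to -0.13). *Smtn* was level in the esophagus (0.03) and the GE-SCJ (0.19), with intervals that hold 0.

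*Myocd* in Stromal cells followed the region. In the stomach it was at 28.8 CPM (23.7 to 34.7) at E15 and 97.3 CPM (89.9 to 105) at E19, a log2 ratio of 1.74 (1.45 to 2.05). At the GE-SCJ it was at 54.1 and 79.9 CPM (0.56, interval 0.32 to 0.80), and in the esophagus at 53.8 and 54 CPM (0.00, interval -0.25 to 0.25). Stomach Stromal cells thus stood below those of the esophagus at E15 (-0.90) and above them at E19 (0.85), while *Myocd* in Smooth Muscle cells was lower at E19 in each region. In the pup it was at 7.96, 10.2 and 17.9 CPM, from 4 to 8 UMIs a group.

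**Figure D4:**
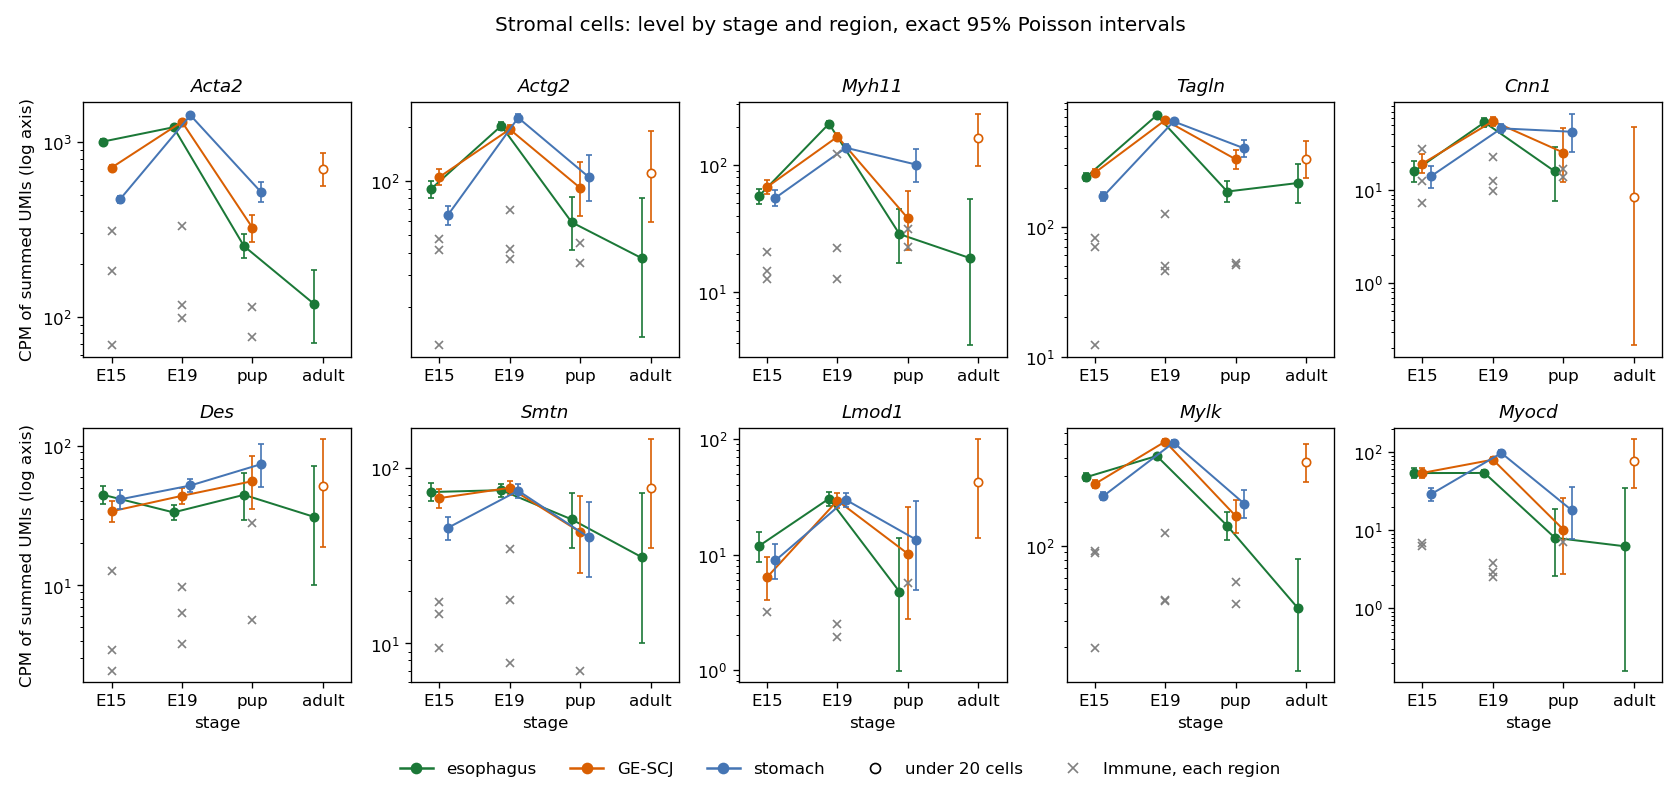
Level of each of the 10 genes in Stromal cells (CPM of summed UMIs, log axis, exact 95% Poisson intervals) by stage and region, with Immune cells of each region as grey crosses and open points for the 15 cells of the adult GE-SCJ. *Cnn1* and *Lmod1* are at 0 in the adult esophagus and have no point there. *Acta2*, *Tagln* and *Mylk* stand highest at E19 in each region and above the Immune cells of that stage.

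After birth, the Stromal sum of the 9 contractile genes was lower than at E19 in each region. In the pup it was also below E15 in the esophagus and the GE-SCJ, but above it in the stomach, at 1489 against 1089 CPM. The 15 adult cells of the GE-SCJ were at 1860 CPM, above the 1537 CPM of E15. From E19 to the pup, 8 of 10 genes were at least 2-fold lower in the esophagus (8.61% of genes), 6 of 10 at the GE-SCJ (10.6%) and 4 of 10 in the stomach (8.82%). Against E15, 3 of 8 counted genes were 2-fold lower in the esophagus (12%), namely *Myocd* (-2.50), *Acta2* (-1.98) and *Mylk* (-1.10), and 2 of 8 at the GE-SCJ (12.8%), *Myocd* (-2.10) and *Acta2* (-1.13). In the stomach 1 of 8 was 2-fold higher (6.88%), *Tagln* (1.23, interval 0.99 to 1.47), and 0 of 8 were 2-fold lower (10.5%). Without the 14 of 78 pup stomach cells whose neighbours were mainly prenatal, the log2 ratio of *Tagln* there was -0.87 and 3 genes were 2-fold lower, and without the 12 of 82 such cells of the GE-SCJ 5 genes were. The cells left out were picked by their likeness in expression to prenatal cells, so these values are no independent check. In the adult esophagus 5 of 8 were 2-fold lower than at E15 (16% of 5927 genes), with *Acta2* at 118 CPM (-3.02, interval -3.74 to -2.39) from 31 cells. *Cnn1* and *Lmod1* had no UMI there, where 3 counts would be 18.6 CPM.

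A small share of Stromal cells held much of the signal. The 5% of cells with the most contractile UMIs held 27.1%, 32.4% and 25.6% of these UMIs at E15 in the esophagus, GE-SCJ and stomach, and 46.1%, 35.7% and 31.9% at E19. In the pup the shares were 38.8%, 61.3% and 59.7%, from 8, 5 and 4 cells. These cells were picked by their contractile UMIs, so their high contractile level is no finding. Their fibroblast markers were at 20549 CPM against 38419 in the other cells of the E19 esophagus, the widest of the 9 gaps before adulthood, and at 23710.5 against 25178 CPM in the pup GE-SCJ, one of the narrowest. They were lower in the top cells in each of those 9 groups, and higher in the 2 top cells of the adult esophagus, at 42393 against 34139 CPM. The median depth of the top cells of the E19 esophagus was 11454 UMIs against 9105.5. The other cells were also higher at E19 than at E15 in each region, at 1444 and 1703 CPM in the esophagus, 1122 and 2135 at the GE-SCJ, and 868 and 2316 in the stomach. Doublets were not removed here beyond the authors' tag calls and their limits on genes and UMIs, and the part of those that remain was not tested.

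The share of cells with a *Myocd* UMI was compared after each cell was thinned to 3000 UMIs. In Smooth Muscle cells of the 3 regions together it was 52.3% (46.7 to 57.7), 41.9% (36.9 to 47), 43.6% (36.9 to 50.4) and 28.2% (15 to 44.9) at the 4 stages (exact 95% Clopper-Pearson intervals), from 333, 382, 218 and 39 cells after 2, 10, 36 and 7 shallower cells were left out. Before thinning the shares were 89.3%, 79.8%, 58.3% and 56.5%. With no adult stomach cells, the adult shares here are of the esophagus and GE-SCJ only. The esophagus gave 92 of the 333 thinned Smooth Muscle cells at E15 and 27 of the 39 in the adult. Stage and region thus cannot be told apart in the adult shares of *Myocd* or *Des*. In Stromal cells the thinned share was 10.8% (8.96 to 12.8), 16.3% (14.7 to 18), 2.32% (0.855 to 4.97) and 2.56% (0.0649 to 13.5), and in Immune cells 0% (0 to 5.06), 1.37% (0.166 to 4.86) and 1.39% (0.0352 to 7.5) up to the pup. The prenatal Stromal shares lay above the Immune background, and that of the pup could not be told from it. At E15 the median depth before thinning was 12171 UMIs in Smooth Muscle, 10087 in Stromal and 11504 in Immune cells. From E15 to E19 *Des* in Smooth Muscle cells took the other course, with shares at the 4 stages of 53.2% (47.6 to 58.6), 79.6% (75.2 to 83.5), 42.2% (35.6 to 49.1) and 79.5% (63.5 to 90.7). By cluster, the pup share of *Des* was 91.8% (80.4 to 97.7) in cluster 4 and 27.8% (21.2 to 35.2) in cluster 11. Its E19 share in cluster 4 was 81.1% (76.8 to 85), with an interval that overlaps that of the pup. The esophagus gave 15 of the 49 thinned pup cells of cluster 4 and 40 of the 371 at E19. The pup share of *Myocd* was 36.7% (23.4 to 51.7) in cluster 4 and 45.6% (37.9 to 53.4) in cluster 11. In pup Stromal cells the thinned share of *Acta2* was 29.7% (24.2 to 35.7), against 30.6% (20.2 to 42.5) in pup Immune cells. For *Myh11* the shares were 9.65% (6.34 to 13.9) and 11.1% (4.92 to 20.7). The other contractile genes had higher pup shares in Stromal than in Immune cells, but all with overlapping intervals.

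**Figure D5:**
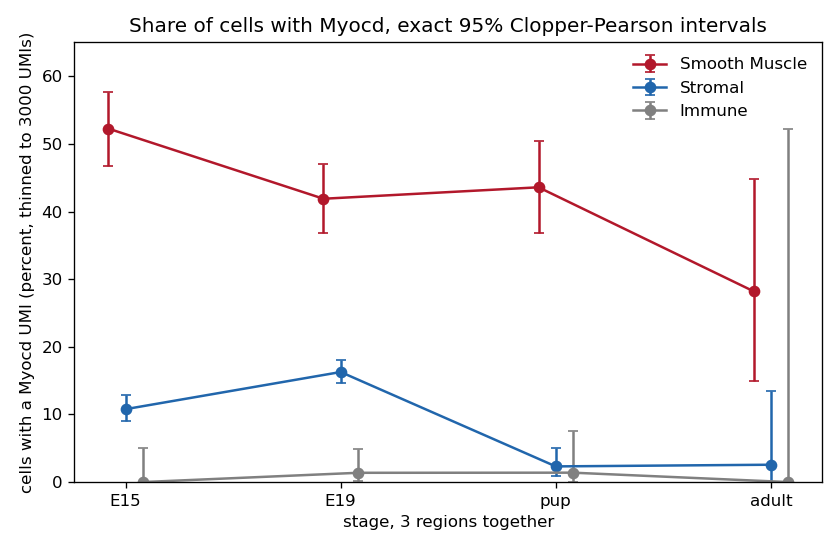
Percent of cells with at least 1 *Myocd* UMI after thinning to 3000 UMIs, by stage with the 3 regions together, in Smooth Muscle, Stromal and Immune cells, with exact 95% Clopper-Pearson intervals. The adult holds no stomach cells. Smooth Muscle cells go from 52.3% at E15 to 41.9% at E19, and Stromal cells from 10.8% to 16.3%.

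Cells with and without a *Myocd* UMI were set side by side at the thinned depth. In Stromal cells at E19, the 321 with one had a median of 16 contractile UMIs (quartiles 7 and 33) and the 1652 without had 2 (quartiles 1 and 6). At E15 the medians were 9 and 2, from 112 and 927 cells. In cluster 4 the difference was small, with medians of 114.5 and 109 at E15 and 161.5 and 135 at E19 and overlapping quartiles, and in pup cluster 11 they were 54 and 46. Each set of cells took all regions together, and levels differed between regions. In Stromal cells at E15, *Myocd* was at 53.8 CPM in the esophagus and 28.8 CPM in the stomach. *Acta2* was there at 1006 and 469 CPM. The part of region in the differences between cells with and without a *Myocd* UMI was not tested. Cells carry no mark of the mouse, so the values describe cells and were not tested.

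Within Smooth Muscle cells, the contractile share of each cell's UMIs varied widely. At E15 the middle cell held 3.66% (5th and 95th percentile 0.948% and 6.2%), at E19 4.79% (1.24% and 9.32%) and in the pup 1.99% (0.155% and 7.07%). At least 1% was reached by 93.4%, 97.2% and 70.1% of cells, against 0.757%, 8.04% and 0.965% of Stromal cells. By cluster, the middle pup cell held 5.28% in cluster 4, with 55 of 55 cells at 1% or more, and 1.59% in cluster 11, with 123 of 199, so the lower pup value did not hold in cluster 4. After thinning, all 9 contractile genes were seen in 53.7% of E19 Smooth Muscle cells of the esophagus, 30.8% of those of the stomach and 18.9% at the GE-SCJ.

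The rest of the contractile apparatus and the regulators of the program were read from 3 lists. Of 20 other contractile genes, 18 were counted in the stomach for pup against E15, and 4 were at least 2-fold lower and 1 higher, beside 12.5% and 10.2% of all genes. *Synpo2* (synaptopodin 2, 154 against 589 CPM, a log2 ratio of -1.92) and *Cald1* (caldesmon, 1584 against 4255 CPM, a log2 ratio of -1.42) were the lowest. *Ppp1r14a*, an inhibitor of myosin phosphatase, was higher (219 against 7.26 CPM, a log2 ratio of 4.81). In cluster 4 of the GE-SCJ, 5 of 18 counted genes were 2-fold higher in the pup (6.61% of all genes) and 0 lower (14.8%), *Ppp1r14a* again the most (509.7 against 62.8 CPM, a log2 ratio of 3.03), and their median log2 ratio was 0.77. *Ppp1r14a* was thus higher in the pup in both comparisons, while the median of the list was -0.41 in the stomach, beside -0.13 over all genes.

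Of 10 genes of calcium handling and relaxation, 8 were counted in the stomach, and *Itpr1* (the IP3 receptor, 118 against 20.6 CPM, a log2 ratio of 2.50) and *Pln* (phospholamban, 87.8 against 39.3 CPM, a log2 ratio of 1.17) were 2-fold higher in the pup and 0 lower, beside the same shares of all genes. *Pln*, looked up at E19 after its values were seen, was also higher at E19 than at E15 in the stomach (265 against 39.3 CPM, a log2 ratio of 2.73) and at the GE-SCJ (93.1 against 34.1 CPM, a log2 ratio of 1.43), and lower in the esophagus (4.32 against 51.2 CPM), where it had too few UMIs to be counted. Of 15 partners and regulators of MYOCD and serum response factor, 13 were in the table and 5 were counted. *Klf4*, a known repressor of the contractile program, was the one of 5 that was 2-fold higher in the pup stomach (222 against 78 CPM, a log2 ratio of 1.51). Of the 5, 0 were lower, beside 10.2% of all genes higher and 12.5% lower. In cluster 4 of the GE-SCJ, 1 of 5 counted genes was higher in the pup (6.61% of all genes) and 1 lower (14.8%). A link of *Klf4* to the contractile levels was not tested. *Srf* itself, at 23.3 against 38.7 CPM, a log2 ratio of -0.65 with an interval of -1.60 to 0.20, had too few UMIs to be counted.

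Genes most like *Myocd* were named by Pearson's r of log2(CPM + 10) over 55 groups of label, region and stage, all from 1 library, among 13555 genes. Of the 10 nearest, 5 were members: *Mylk* (0.968), *Acta2* (0.963), *Tagln* (0.943), *Myh11* (0.939) and *Actg2* (0.939). The other 5 were *Nexn* (0.957), *Myl9* (0.946), *Fbxl22*, *Wscd2* and *Jph2*. *Lmod1*, *Cnn1*, *Des* and *Smtn* stood at places 13, 18, 23 and 29. To the sum of the 9 contractile genes, *Myl9* (myosin light chain 9, 0.988) was nearest, ahead of *Nexn*, *Jph2*, *Fbxl22*, *Synpo2*, *Myl6*, *Mrvi1*, *Rbpms2*, *Sntg2* and *Wscd2*. The groups share 1 library and divide into Smooth Muscle and all other labels, so these values describe that division as well as the stages.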

How the data were processed

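A single 10x 3′ gene expression library with a paired tag library (2 sample records, which share all 7808 barcodes) was analysed. The authors dissociated the tissues with collagenase, pooled tagged cells of all regions and stages, made UMI counts and tag calls with Cell Ranger 6.1.1 on mm10, filtered the cells on their genes, UMIs and mitochondrial share, and deposited raw counts per gene and cell with Region, stage, cluster and cell type labels and the percent of mitochondrial counts, which was used as deposited only in an alternative filter. Per the deposited counts, cells held 519 to 79817 UMIs, with medians of 12171, 11464, 4595 and 5446.5 UMIs in Smooth Muscle cells at E15, E19, pup and adult. No column belonged to an unknown sample.

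Counts were summed over the cells of a label, region and stage and divided by the group's total (Python 3.11.15, numpy 2.4.6, scipy 1.17.1). With 1 pooled sample a group, no test was made. Intervals are exact at 95%, and a gene was counted when both groups together held at least 100 UMIs and called at 2-fold. Shares used 3000 UMIs per cell. The calculation was checked on simulated counts. Nearest neighbours were the 15 closest cells in 30 principal components (scikit-learn 1.9.0), and a cell counted as across birth when most came from the other side of birth. Named genes were the 10 members, the 2 largest differences in each direction of 3 other lists, and the 10 most alike. Members and lists were chosen with earlier results of these data known. Alternatives were other size factors, totals, cell filters, added counts and thinning depths. The split by cluster and the contrasts with E19 were added after the data were seen.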

Additional observations from a re-analysis of the deposited data

Results flagged for a closer look

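In 5 comparisons the regions moved in opposite directions from one stage to another, with intervals on either side of 0. The difference between regions was not tested, since each region is 1 pooled sample.

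In Smooth Muscle cells, *Myh11*, the myosin heavy chain gene, had a log2 ratio of pup to E15 of -1.04 in the stomach and 0.89 in the esophagus. Its ratio of pup to E19 was -1.22 in the stomach and 0.56 in the esophagus. The pup cells of the stomach lay mostly in cluster 11 (101 of 113) and those of the esophagus mostly in cluster 4 (19 of 22). Within cluster 4 the pup level was 7541 CPM in the esophagus and 4301 CPM in the stomach, from 19 and 12 cells. That stomach value lay above the whole-label level at E15 and below that at E19. Cluster 4 held 109 of 111 and 154 of 160 stomach cells at those stages. The lower pup level against E15 in the stomach thus did not hold within cluster 4.

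In Stromal cells, *Myh11* had a log2 ratio of pup to E15 of 0.89 in the stomach, against -0.91 in the esophagus and -0.73 at the GE-SCJ. *Actg2*, the γ-actin gene, had 0.73 in the stomach and -0.58 in the esophagus. In the pup stomach, 4 of 78 Stromal cells held 59.7% of the contractile UMIs, and their part in these values was not tested. The pup levels of both genes had overlapping intervals in Stromal and Immune cells in each region. In the pup stomach, *Myh11* was at 101 CPM (73.5 to 135) in Stromal cells and 83.6 CPM (43.2 to 146) in 17 Immune cells.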

How the results depend on the processing

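Of 1880 log2 ratios recomputed under alternatives, 1626 stayed within the reported interval, 252 left it, and 2 values that had passed 2-fold changed sign: *Tagln* in pup over E15 Stromal stomach cells, -0.87 without cells with neighbours across birth, and *Actg2* in pup over E19 Smooth Muscle cells of the GE-SCJ, 0.16 in cluster 4 alone. The largest shift of a log2 ratio was 2.47 without cells with neighbours across birth, 1.63 in cluster 4 alone, 1.59 without the top 1% of cells and 0.16 with median-of-ratios size factors. The causes of the changes listed here were not tested. No paired analysis was possible because no replicate is marked among the cells.

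Counts of genes past 2-fold moved as follows. With median-of-ratios size factors, 2 genes were higher in pup over E15 and in adult over E15 Smooth Muscle of the esophagus, 2 were higher in E19 over E15 in the stomach, 2 were lower in stomach over esophagus at E15, and 3 were higher in pup over E15 Stromal stomach. With CPM averaged over single cells, the counts were 1 lower in pup over E15 and 3 lower in pup over E19 Smooth Muscle of the GE-SCJ, 1 higher in stomach over esophagus at E19, and, in Stromal stomach, 0 higher and 1 lower in pup over E15 and 7 lower in pup over E19. Leaving out, for each gene, its top 1% of cells, they were 0 higher in pup over E15 Smooth Muscle of the esophagus, 1 lower in pup over E15 and 2 lower in pup over E19 at the GE-SCJ, 1 higher in stomach over esophagus at E19, and 0 higher (pup over E15) and 7 lower (pup over E19) in Stromal stomach. With cells under 1000 UMIs or over 10% mitochondrial UMIs left out, 2 were higher in pup over E15 in Smooth Muscle of the esophagus and 2 in Stromal stomach. Without cells over 0.5% skeletal UMIs, 2 were higher in the former, and with genes of at least 20 UMIs, 2 in the latter.

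Without cells with neighbours across birth, 1 gene was lower in pup over E15 and 3 in pup over E19 Smooth Muscle of the GE-SCJ, 5 were lower in pup over E15 Stromal GE-SCJ, and 0 higher and 3 lower in pup over E15 and 8 lower in pup over E19 Stromal stomach. The number of genes lowest at E15 was then 1 at the GE-SCJ and 2 in the stomach. The cells left out were picked by their expression, so these counts are no independent check. In cluster 4 alone, 4 were higher in pup over E15 and 0 lower in pup over E19 at the GE-SCJ, and 9 were lowest at E15. The share of Smooth Muscle cells with *Myocd* was 37.9% at E15 and 34.5% at E19 at 2000 UMIs per cell, and 20.7%, 14.7%, 17.4% and 10.3% at E15, E19, pup and adult when 2 UMIs were required.

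Folds were not made for the adult GE-SCJ (16 and 15 cells), for the pup esophagus without cells with neighbours across birth (7 cells left), or for cluster 4 in the pup esophagus, pup stomach and adult esophagus (19, 12 and 7 cells). Depth limited the pup Stromal groups, in which *Myocd* had 4 to 8 UMIs and *Lmod1* 3 to 6.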

Other observations

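Between E15 and E19 few of the other contractile genes passed 2-fold in Smooth Muscle cells. Of the 20, 17 were counted in the stomach and 1 was at least 2-fold higher, 19 at the GE-SCJ with 0, and 18 in the esophagus with 1, and 0 were 2-fold lower in any region. Of all genes, 1.37%, 1.34% and 3.05% were 2-fold higher in the same order of regions. The median log2 ratios of the list were 0.36, 0.26 and 0.23, beside 0.56, 0.24 and 0.39 over the 10 members. Of the calcium and relaxation genes, 3 of 10 counted were 2-fold higher at the GE-SCJ, 1 of 7 in the stomach and 0 of 4 in the esophagus.

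One adult Immune cell of the GE-SCJ group held *Acta2* at 4622 CPM and *Tagln* at 6653 CPM. The 16 Smooth Muscle cells of that group held 10485 and 9287 CPM, and no other Immune group was above 390.2 CPM for *Acta2*.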
